A study of Mus musculus with 180 samples.

Results

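Interferon-stimulated genes are the genes that a cell switches on after it senses interferon, the cytokine that signals viral infection. The 39 genes described here were taken from a written list, and all 39 were among the 14825 genes measured by Smart-Seq2 in single mouse blood progenitors, 38 under the listed symbol and Ifi27 under an older one, Ifi27l1. The genes were chosen by name, and the rule used no measured value.

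The study asked whether enforced Hoxb5, a homeobox transcription factor, turns multipotent progenitors (MPP) into cells resembling haematopoietic stem cells (HSC). Its 180 cells fall into 4 populations of C57BL/6 background. The 47 CD11b+CD48+SK cells (named CD48+Mac1+SK in the labels; SK stands for Sca1+ c-kit+) were donor cells sorted from primary recipients at Week 8 after transplantation. Their donors were MPP of Mx1cre/Rosa LSL-Hoxb5-EGFP/+ mice, in which Cre under the Mx1 promoter releases Hoxb5 and EGFP, and the recipients were irradiated and injected with pIpC around the transplantation. The 41 WT-MPP and 36 BM HSC came from 8-week-old Rosa LSL-Hoxb5-EGFP/+ mice and the 56 FL HSC from fetal liver of the same line at embryonic stage Day14.5, a line named without Cre. The comparison populations thus carried the silent Hoxb5 cassette, and no transplantation, irradiation or pIpC is named for them. Genotype, transplantation, irradiation, pIpC and the CD11b+CD48+ gate set the CD11b+CD48+SK cells apart all at once, so these factors cannot be told apart. The labels give bone marrow as the source of every cell, fetal liver included.

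Type I interferon binds the receptor pair Ifnar1 and Ifnar2, whose kinases Jak1 and Tyk2 phosphorylate Stat2. Stat2 and Irf9 are part of a complex that binds the interferon-stimulated response element (ISRE) upstream of its target genes. Double-stranded RNA, or its synthetic mimic pIpC, is sensed by cells and provokes interferon, and the Mx1 promoter in the Cre transgene is itself an interferon-stimulated promoter. In blood stem cells, interferon is known to push resting cells into division, and some interferon-stimulated genes, such as the Ifitm family, are expressed in stem cells without any infection.

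Promoter sequence is shown first, because the ISRE is what these genes are known to share. The list was written by name, but of genes known to answer to interferon. A high share of ISRE matches is thus a description and not a separate finding. RefSeq windows of GRCm38.p6, running from 250 bases before to 50 bases after each start site, were found for 29 of the 39 genes. No window was used for Dhx58, Zbp1, Oas2, Mx1, Mx2, Rtp4, Usp18, Parp9, Parp14 and Ifi27. The ISRE core was searched on both strands as GAAANNGAAA, in which N is any base. It was in at least 1 window of 16 of the 29 genes, or 55.2%, against 3.99% of all 27025 genes with a window. Of the 16, 12 held it before the start site. The gamma-activated site, searched as TTCNNNGAA on both strands, was in 10 of the 29 genes (34.5%), against 9.55% of all genes. In 2 windows a match of one motif shared bases with a match of the other. A match is a run of letters and not a shown binding site.

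The 6 stretches below, all before the start site and read 5′ to 3′ on the strand of the gene, belong to genes whose levels are described further on. Capitals mark the ISRE core matches, which read as the reverse complement where they lie on the opposite strand.
Isg15 (chr4:156200861-156200910, minus strand): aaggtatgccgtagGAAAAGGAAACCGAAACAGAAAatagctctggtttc
Oas1a (chr5:120907526-120907559, minus strand): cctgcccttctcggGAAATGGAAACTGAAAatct
Bst2 (chr8:71537573-71537616, minus strand): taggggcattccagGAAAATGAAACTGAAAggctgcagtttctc
Gbp2 (chr3:142620590-142620627, plus strand): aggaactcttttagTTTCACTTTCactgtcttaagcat
Rsad2 (chr12:26456549-26456586, minus strand): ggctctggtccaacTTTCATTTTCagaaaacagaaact
Ifitm2 (chr7:140955984-140956021, minus strand): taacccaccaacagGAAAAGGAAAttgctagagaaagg
Isg15 held 3 overlapping matches, the first of them starting 78 bases before the start site. Oas1a and Bst2 each held 2 overlapping matches, and Gbp2, Rsad2 and Ifitm2 held 1. Ifitm3 had 2 matches just after its start site, and the windows of Ifitm1 and Ifi44 held none of these letters.

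Levels are given as TPM, a transcript abundance that is corrected for gene length and scaled to the same total in every cell, and a gene was counted in a cell at a TPM of 1 or more. Differences between populations are differences between means over cells of log2(TPM+1), and a difference of 1 or more in either direction is called past the fold. The labels tie no cell to an animal, and every population therefore counts as 1 sample. No test between populations could be made, no p-value is given, and every difference is a description of these cells. Intervals on shares of cells are 95% exact Clopper-Pearson intervals and cover the counting of cells only.

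The cells differed in how much was measured in them. The median number of genes per cell was 4514 in CD11b+CD48+SK cells, 3844 among WT-MPP, 4441.5 among BM HSC and 5206.5 among FL HSC. Genes above 0 but below a TPM of 1 numbered 699 in the median CD11b+CD48+SK cell and in the median FL HSC, against 1392 among WT-MPP and 1445.5 among BM HSC, so the libraries fell into pairs of populations. Their part in the differences below was not tested. Hoxb5 itself was in 43 of 47 CD11b+CD48+SK cells at a mean of 69.8 TPM, and in 7 of the 41 WT-MPP, 8 of the 36 BM HSC and 32 of the 56 FL HSC at means of 12.4, 16.1 and 21.7 TPM. Cd48 was in all 47 CD11b+CD48+SK cells, at a mean of 1539 TPM, while Itgam, which encodes CD11b, was in 36.2% of them.

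CD11b+CD48+SK cells stood low for most of the 39 interferon-stimulated genes. Leaving ties out, the mean log2 level was lowest in these cells for 22 of the 39 genes, while 22.2% of all genes were lowest there. With ties counted as lowest in these cells, it was 23 of the 39 genes, beside 37.2% of all genes. By mean TPM it was 24 of the 39, beside 31.2% of all genes. FL HSC held the highest mean log2 level for 19 of the 39 and 46.2% of all genes, which is near the background. By mean TPM, WT-MPP held the highest level for 22 of the 39 (27.5% of all genes) and FL HSC for 10 (26.6%). The median gene of the list was in 23.4% of CD11b+CD48+SK cells, 34.1% of the WT-MPP, 30.6% of the BM HSC and 42.9% of the FL HSC. Ifit3, Mx1, Mx2 and Ifi44 were in no CD11b+CD48+SK cell, which allows a share of up to 6.38% if 3 cells of 47 are taken as the limit for a count of 0, and Mx1 and Mx2 were in no BM HSC either. The share of all genes found in no cell of a population was not counted. These absences therefore describe single genes and do not set the list apart.

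**Figure D1:**
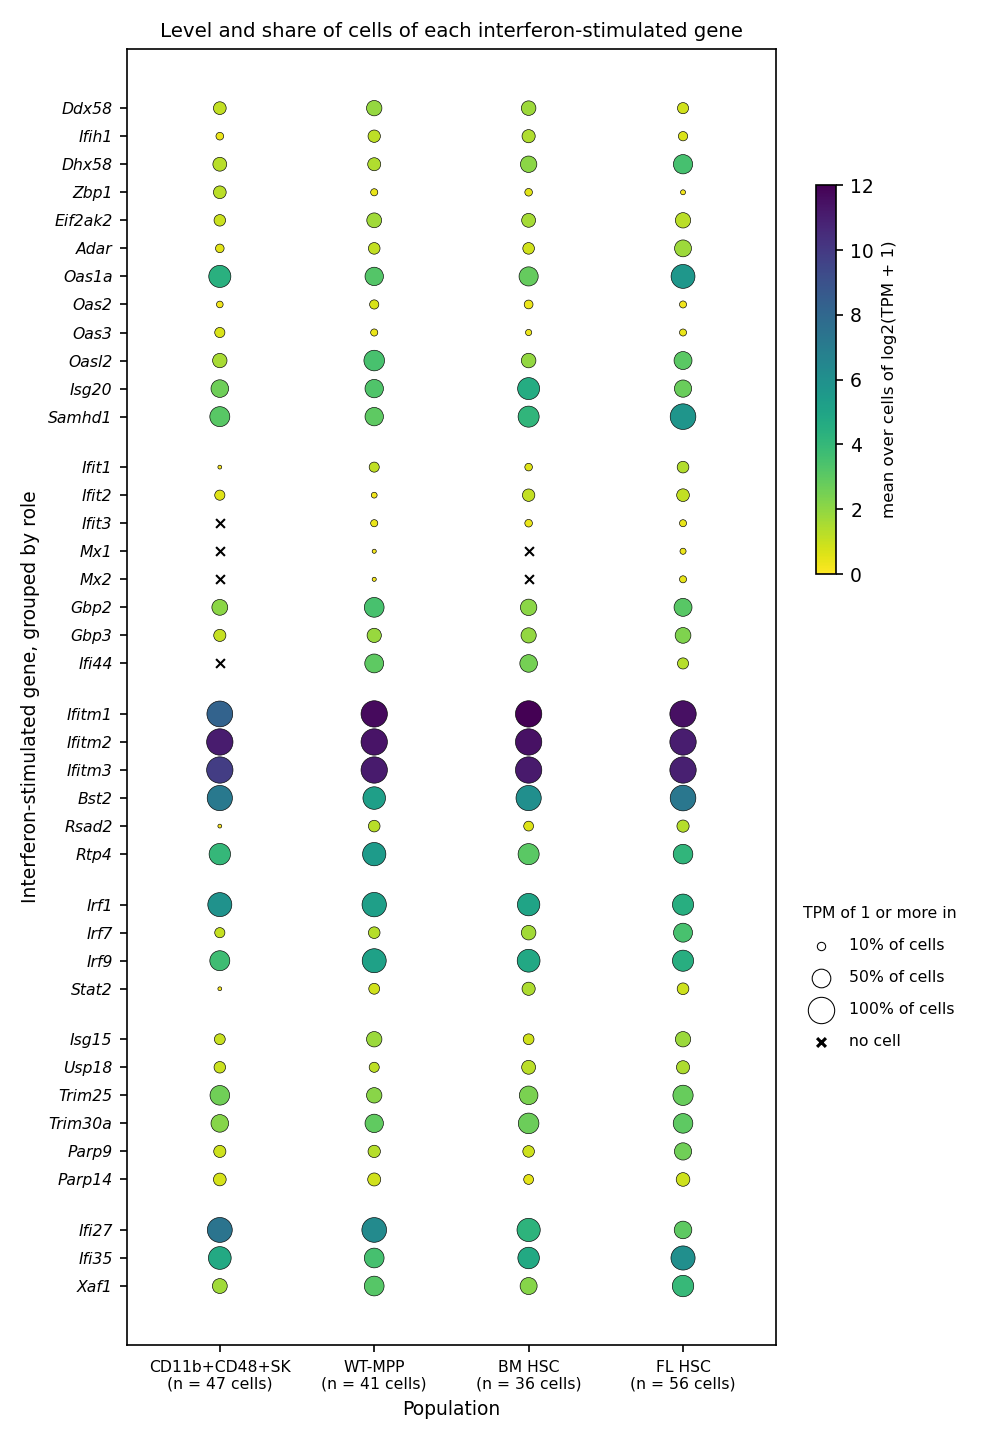
Each row is 1 of the 39 interferon-stimulated genes and each column a population. Circle area shows the percent of cells with a TPM of at least 1, colour the mean over cells of log2(TPM + 1), and a cross a gene that was in no cell. Ifitm1, Ifitm2 and Ifitm3 are the darkest circles in every column, and the CD11b+CD48+SK column has 4 crosses.

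Against WT-MPP, 4 of the 39 genes were higher in CD11b+CD48+SK cells and 9 were lower. Of all genes, 13.9% were higher and 3.67% lower. The median difference of the 39 genes was -0.47, beside 0.03 over all genes, and 29 of the 39 lay below 0. The lower genes were Ifitm1, Ifi44, Oasl2, Rtp4, Xaf1, Irf9, Gbp2, Ifitm3 and Rsad2, and the higher ones Bst2, Ifi35, Oas1a and Ifi27. When levels were averaged as TPM before the logarithm, 1 of the 39 was higher and 20 lower, but all genes moved too, to 9.8% higher and 21.3% lower. Among cells with 3500 to 5500 genes, 1 was higher and 16 lower, beside 9.46% and 6.37% of all genes. Past the fold under both ways of averaging were 8 genes, all lower in CD11b+CD48+SK cells, while 3.53% of all genes were higher and 3.55% lower under both. They were Oasl2, Gbp2, Ifi44, Ifitm1, Ifitm3, Rsad2, Irf9 and Xaf1.

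Against BM HSC, 3 genes were higher and 8 lower, while 9.79% of all genes were higher and 8.63% lower. The median difference was -0.36, beside 0.00 over all genes. Ifi27, Oas1a and Bst2 were the higher genes, and Ifitm1, Ifi44, Isg20, Stat2, Ifitm3, Irf9, Ifih1 and Samhd1 the lower ones. With each cell scaled by its median ratio the counts were 3 higher and 5 lower, beside 10.9% and 7.13% of all genes. With TPM averaged first they were 4 and 12, beside 9.16% and 25.1%, so the lower count was then near the background. Among cells with 3500 to 5500 genes they were 2 and 12, beside 8.59% and 11.6%. Under both ways of averaging, Ifi27 was higher and Ifih1, Ifi44, Ifitm1, Ifitm3 and Stat2 were lower, while 3.46% of all genes were higher and 7.85% lower.

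Against FL HSC, 3 genes were higher and 16 lower, while 2.94% of all genes were higher and 15.3% lower. The median difference was -0.75, beside -0.14 over all genes. The higher genes were Ifi27, Irf1 and Zbp1. The lower ones were Ifitm1, Samhd1, Irf7, Xaf1, Dhx58, Parp9, Oasl2, Ifi44, Ifi35, Oas1a, Gbp3, Ifit1, Adar, Rsad2, Ifitm3 and Gbp2. Part of this distance lay in 6 FL HSC cells described below. Without them 3 genes were higher and 8 lower, beside 2.95% and 15.7% of all genes, and the median difference was -0.33. The 6 cells were chosen for holding many of these same genes, so a smaller distance without them was favoured by the choice. These comparisons share the CD11b+CD48+SK cells, so they are not separate evidence of one another.

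**Figure D2:**
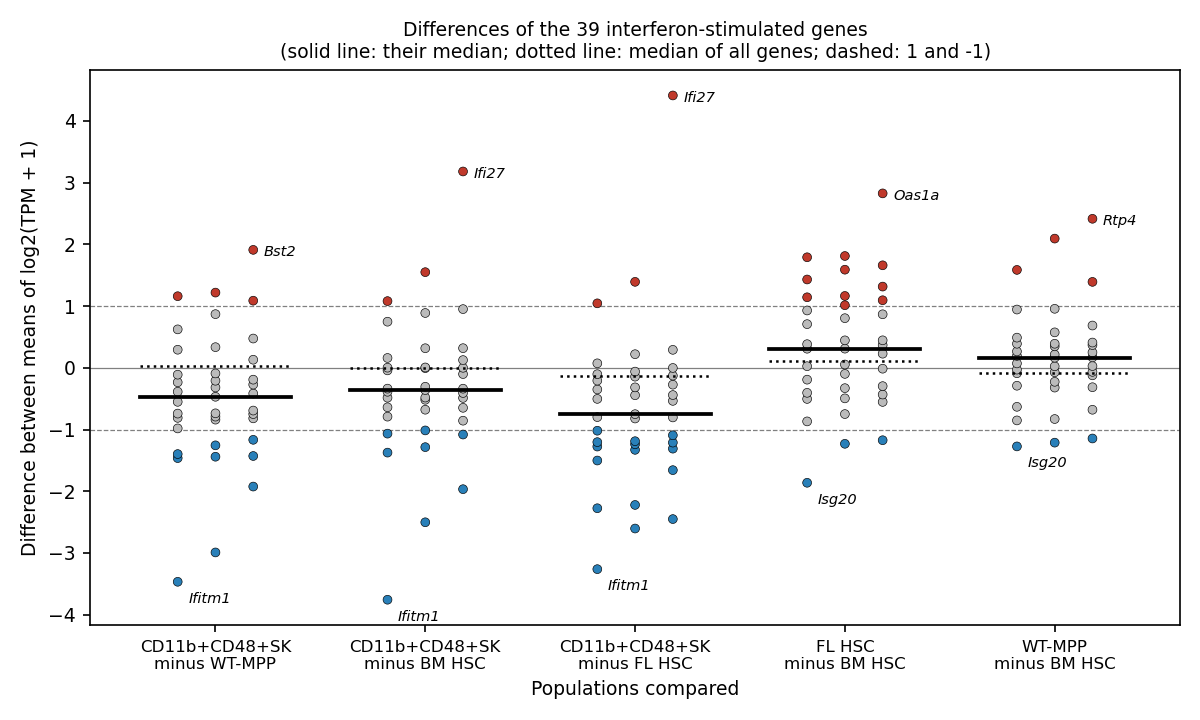
Each point is 1 of the 39 genes, and the y axis gives the difference between population means of log2(TPM + 1) for each of 5 pairs of populations. Red points lie at 1 or more and blue points at -1 or less, the solid line is the median of the 39 genes and the dotted line the median of all 14825 genes. The solid line lies below the dotted one in the 3 comparisons with CD11b+CD48+SK cells and above it in the other two.

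The membrane restriction factors held most of the signal. Ifitm1, Ifitm2 and Ifitm3 are small membrane proteins that block the entry of viruses, and their genes are neighbours on chromosome 7 of GRCm38.p6, at 140967429 to 140969827, 140954837 to 140959686 and 141009590 to 141010744. In the median cell they made up 73.9% of the summed TPM of the 39 genes in CD11b+CD48+SK cells, 78.3% of the WT-MPP, 85.3% of the BM HSC and 85.0% of the FL HSC. By mean TPM, Ifitm1 was gene number 10 in WT-MPP, 5 for BM HSC and 19 for FL HSC, but 209 in CD11b+CD48+SK cells. The family members resemble each other in sequence, so reads may have been split between them.

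The lowest, median and highest Ifitm1 levels were 0, 391 and 3169 TPM in CD11b+CD48+SK cells, 857, 3140 and 10422 TPM among WT-MPP, 265, 4961 and 26040 TPM among BM HSC, and 562, 3168 and 6645 TPM among FL HSC. The ranges overlapped, but 33 of the 47 CD11b+CD48+SK cells lay under the lowest WT-MPP, 27 under the lowest FL HSC and 17 under the lowest BM HSC. Mean TPM was 761 in CD11b+CD48+SK cells, against 4113, 5318 and 3215 among WT-MPP, BM HSC and FL HSC. The log2 difference was -3.47 relative to WT-MPP, -3.76 to BM HSC and -3.26 to FL HSC. WT-MPP and FL HSC differed from BM HSC by -0.29 and -0.50, which is within the fold.

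Ifitm3 followed Ifitm1 with smaller differences. Its lowest, median and highest levels were 125, 1069 and 3084 TPM in CD11b+CD48+SK cells, 410, 2510 and 6291 TPM among WT-MPP, 508, 2489 and 6303 TPM among BM HSC, and 611, 1680 and 18579 TPM among FL HSC. The ranges overlapped, with 7, 11 and 13 of the 47 CD11b+CD48+SK cells under the lowest WT-MPP, BM HSC and FL HSC. Under the median WT-MPP, BM HSC and FL HSC lay 46, 46 and 35 of the 47. In turn, 3 of the 41 WT-MPP, 3 of the 36 BM HSC and 5 of the 56 FL HSC lay under the CD11b+CD48+SK median. The log2 difference was -1.26 relative to WT-MPP, -1.29 to BM HSC and -1.09 to FL HSC.

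Ifitm2 stood at a like level in all populations. Its median was 2432 TPM in CD11b+CD48+SK cells, 2734 among WT-MPP, 2988 among BM HSC and 2116 among FL HSC, and CD11b+CD48+SK cells lay -0.27, -0.36 and 0.07 from WT-MPP, BM HSC and FL HSC on the log2 scale. The ratio of a pair of genes within a cell does not depend on how cells are scaled, apart from the pseudocount. Within a cell, the log2 level of Ifitm1 minus that of Ifitm2 had a median of -2.51 in CD11b+CD48+SK cells, 0.36 among WT-MPP, 0.68 among BM HSC and 0.45 among FL HSC. Ifitm1 exceeded Ifitm2 in 2 of 47 CD11b+CD48+SK cells, 22 of the 41 WT-MPP, 29 of the 36 BM HSC and 46 of the 56 FL HSC. The difference of Ifitm3 from Ifitm2 within a cell had medians of -1.18, -0.38, -0.23 and -0.10. Across CD11b+CD48+SK cells Ifitm1 and Ifitm3 varied together, with a Spearman correlation of 0.652 over 47 cells that share their scaling.

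**Figure D3:**
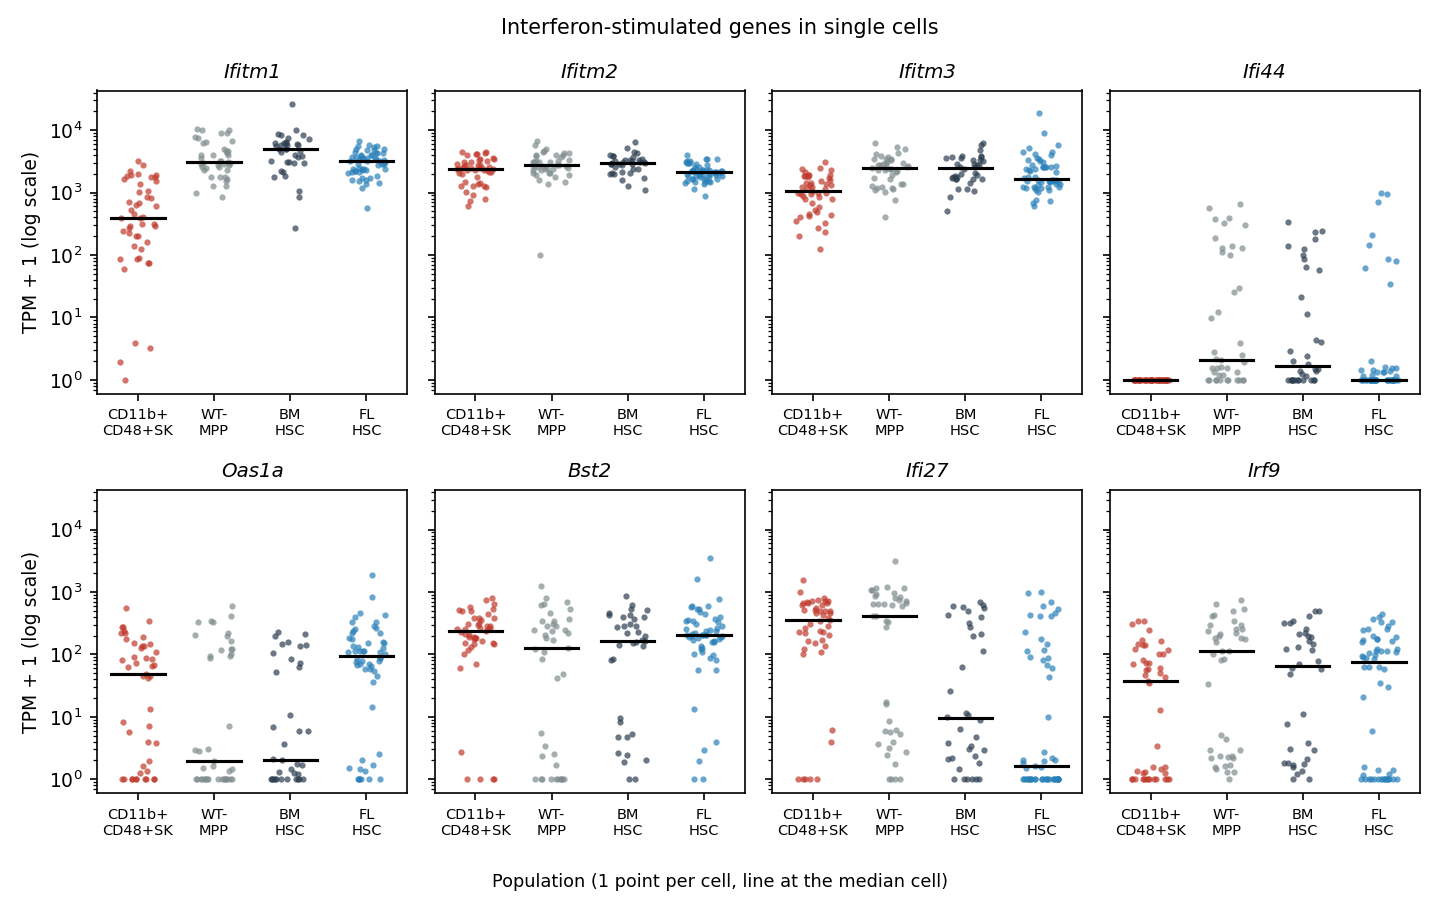
Each point is a cell, the y axis is TPM + 1 on a log scale, and the black line marks the median cell of each population. Ifitm1 lies lower in CD11b+CD48+SK cells than elsewhere while Ifitm2 lies at like heights, Ifi44 is at 0 in all 47 CD11b+CD48+SK cells, and Oas1a, Bst2, Ifi27 and Irf9 split into cells near 0 and cells near 100 TPM or above.

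The other membrane genes went different ways. Bst2, or tetherin, which holds budding viruses to the cell surface, was in 91.5% of CD11b+CD48+SK cells (95% interval 79.6 to 97.6%), 73.2% of the WT-MPP (57.1 to 85.8%), 91.7% of the BM HSC (77.5 to 98.2%) and 94.6% of the FL HSC (85.1 to 98.9%). Its log2 differences were 1.91, 1.08 and -0.06 from WT-MPP, BM HSC and FL HSC. Its mean TPM of 267, against 218, 219 and 318, was past the fold of neither WT-MPP nor BM HSC. In those 2 populations more cells were at low values, with first quartiles of 0.694 and 6.52 TPM against 148 TPM in CD11b+CD48+SK cells and 125 TPM among FL HSC. Rsad2, or viperin, an antiviral enzyme, was in 1 of 47 CD11b+CD48+SK cells, 8 of the 41 WT-MPP, 5 of the 36 BM HSC and 12 of the 56 FL HSC, and its log2 differences were -1.17, -0.48 and -1.19. Rtp4, a chaperone of membrane receptors, was highest in WT-MPP, at a mean of 305 TPM against 153 in CD11b+CD48+SK cells, 68.4 among BM HSC and 166 among FL HSC, and its log2 differences were -1.46, 0.95 and -0.14.

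Among the 8 translation blockers and antiviral GTPases, none was past the fold in the higher direction in CD11b+CD48+SK cells. This is near the background. Higher than in WT-MPP, BM HSC and FL HSC were 13.9%, 9.79% and 2.94% of all genes in CD11b+CD48+SK cells. Ifi44, an interferon-induced protein of the cytoplasm, was in 0 of 47 of these cells, whereas it was in 51.2% of the WT-MPP (95% interval 35.1 to 67.1%), 44.4% of the BM HSC (27.9 to 61.9%) and 17.9% of the FL HSC (8.91 to 30.4%). Its highest cells reached 655, 333 and 984 TPM in those populations. The log2 differences were -2.99, -2.50 and -1.33.

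The Ifit proteins bind viral RNA and stop its translation, and reads may have been split among these paralogs. Ifit1 was in 1 of 47 CD11b+CD48+SK cells, 6 of the 41 WT-MPP, 3 of the 36 BM HSC and 11 of the 56 FL HSC, with log2 differences of -0.98, -0.41 and -1.21. Ifit3 was in 0, 3, 3 and 4 cells, and Ifit2 in 7, 2, 8 and 13 cells. At least 1 of the 3 genes was in 17% of CD11b+CD48+SK cells, 24.4% of the WT-MPP, 33.3% of the BM HSC and 32.1% of the FL HSC, so the family as a whole was sparse everywhere.

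Mx1 and Mx2 encode dynamin-like GTPases against influenza and related viruses, and RefSeq lists both as transcribed pseudogenes in the reference strain. The Mx1 transcript was listed at 0 in every CD11b+CD48+SK cell, the population whose Hoxb5 cassette was opened by a Cre under the Mx1 promoter. Elsewhere it was in 1 of the 41 WT-MPP, 0 of the 36 BM HSC and 3 of the 56 FL HSC. Mx2 was in 0, 1, 0 and 4 cells. The guanylate-binding protein Gbp2 was in 36.2%, 56.1%, 38.9% and 46.4% of the cells of CD11b+CD48+SK, WT-MPP, BM HSC and FL HSC, with log2 differences of -1.40, -0.01 and -1.02. Gbp3, its paralog, had differences of -0.79, -0.86 and -1.24.

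The 12 RNA sensors and RNA-acting effectors were mixed. Oas1a makes the 2-5A messenger that activates the antiviral nuclease RNase L, and it was in 70.2% of CD11b+CD48+SK cells (95% interval 55.1 to 82.7%), 48.8% of the WT-MPP (32.9 to 64.9%), 52.8% of the BM HSC (35.5 to 69.6%) and 82.1% of the FL HSC (69.6 to 91.1%). Its lowest cell was at 0 in each population, the median cell at 46.9, 0.960, 1.06 and 93.1 TPM, and the highest at 555, 590, 230 and 1888 TPM. The ranges overlapped, and the median cell was near 0 in WT-MPP and BM HSC alone. The log2 differences were 1.16, 1.55 and -1.28. Mean TPM was 87.2 in CD11b+CD48+SK cells and 86.6 among WT-MPP, and among cells with 3500 to 5500 genes the difference from WT-MPP turned to -0.23, so its direction there depended on the cells and the average.

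Oasl2, a relative of Oas1a, was in 29.8% of CD11b+CD48+SK cells (17.3 to 44.9%), 61.0% of the WT-MPP (44.5 to 75.8%), 30.6% of the BM HSC (16.3 to 48.1%) and 46.4% of the FL HSC (33 to 60.3%). Its mean was 16.7, 86.7, 43.9 and 71.2 TPM and its log2 differences -1.92, -0.34 and -1.50. Oas2 and Oas3 were in 6.38% and 14.9% of CD11b+CD48+SK cells and in at most 12.2% and 7.32% of the cells of any other population, and both stayed within the fold. The OAS family thus went in more than one direction, Oas1a standing higher by mean log2 level and Oasl2 lower than in WT-MPP.

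The RIG-I-like receptors sense double-stranded RNA in the cytoplasm. Ddx58, which encodes RIG-I, was in 23.4% of CD11b+CD48+SK cells, 34.1% of the WT-MPP, 30.6% of the BM HSC and 17.9% of the FL HSC, within the fold throughout. Ifih1, which encodes MDA5, was in 8.51%, 22%, 25% and 12.5% of cells, with a difference of -1.07 from BM HSC. Dhx58, their regulator LGP2, was in 53.6% of the FL HSC against 27.7% of CD11b+CD48+SK cells, 24.4% of the WT-MPP and 38.9% of the BM HSC, and was lower by 2.22 in CD11b+CD48+SK cells than in FL HSC. Eif2ak2, the kinase PKR, stayed within the fold in all 5 comparisons.

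Zbp1, a sensor of Z-form nucleic acids, went against the list. It was in 23.4% of CD11b+CD48+SK cells (12.3 to 38%), 7.32% of the WT-MPP (1.54 to 19.9%), 8.33% of the BM HSC (1.75 to 22.5%) and 3.57% of the FL HSC (0.435 to 12.3%), with log2 differences of 0.87, 0.75 and 1.04. Adar, which edits double-stranded RNA, was in 10.6% of CD11b+CD48+SK cells and 41.1% of the FL HSC, a difference of -1.20. Isg20, an RNA exonuclease, was in 69.4% of the BM HSC and 44.7% of CD11b+CD48+SK cells, a difference of -1.97. Samhd1, which depletes nucleotides for reverse transcription, was in 94.6% of the FL HSC (85.1 to 98.9%) and 57.4% of CD11b+CD48+SK cells (42.2 to 71.7%), a difference of -2.60, and its difference from BM HSC was -1.01.

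The transcription factors of the response include 2 parts of the complex that binds the ISRE, Stat2 and Irf9. Irf9 was in 57.4% of CD11b+CD48+SK cells (42.2 to 71.7%), 82.9% of the WT-MPP (67.9 to 92.8%), 75% of the BM HSC (57.8 to 87.9%) and 64.3% of the FL HSC (50.4 to 76.6%). Its lowest cell was at 0 in each population, the median at 35.9, 113, 64.4 and 73.5 TPM, and the highest at 347, 746, 491 and 450 TPM. The ranges overlapped, with the CD11b+CD48+SK cells lowest at the median and WT-MPP highest. The log2 differences were -1.43, -1.08 and -0.75. Stat2 was in 1 of 47 CD11b+CD48+SK cells, 7 of the 41 WT-MPP, 9 of the 36 BM HSC and 11 of the 56 FL HSC, with differences of -0.74, -1.37 and -0.82. Both components were thus at their lowest mean log2 level in CD11b+CD48+SK cells.

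Irf7, the factor that amplifies type I interferon production, was in 51.8% of the FL HSC (38 to 65.3%), 14.9% of CD11b+CD48+SK cells (6.20 to 28.3%), 19.5% of the WT-MPP and 30.6% of the BM HSC. CD11b+CD48+SK cells were lower than FL HSC by a log2 difference of -2.45 and within the fold of the other two. Irf1, which also answers to interferon gamma, was in 83.0% of CD11b+CD48+SK cells, 85.4% of the WT-MPP, 72.2% of the BM HSC and 64.3% of the FL HSC, with differences of 0.62, 0.89 and 1.39. Its mean TPM was 181 in CD11b+CD48+SK cells against 263, 205 and 90.0, so by that average it lay below WT-MPP and BM HSC.

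Genes of ubiquitin-like conjugation and ADP-ribosylation stayed within the fold of WT-MPP and BM HSC, all 6 of them. So did most genes of the table, 12217 and 12093 of the 14825. Isg15, the ubiquitin-like protein of the response, was in 17% of CD11b+CD48+SK cells, 34.1% of the WT-MPP, 16.7% of the BM HSC and 33.9% of the FL HSC, and Usp18, which removes it from its targets, in 19.1%, 14.6%, 27.8% and 25%. Trim25, a ubiquitin ligase acting on RIG-I, was in 55.3%, 34.1%, 50% and 58.9% of cells. All 3 were thus found in every population. Trim30a was in 44.7%, 48.8%, 61.1% and 55.4% of cells, and Parp14, an ADP-ribosyltransferase, in 23.4%, 24.4%, 13.9% and 26.8%. Parp9, the partner of the ligase Dtx3l, was in 21.3%, 22%, 19.4% and 42.9% of cells, and its difference from FL HSC of -1.66 was past the fold.

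Ifi27 ran against most of the list. It was in 89.4% of CD11b+CD48+SK cells (95% interval from 76.9% up to 96.5%), 87.8% of the WT-MPP, 77.8% of the BM HSC and 44.6% of the FL HSC. Its lowest cell was at 0 in each population, the median at 353, 413, 8.42 and 0.60 TPM, and the highest at 1532, 3147, 702 and 1014 TPM. The ranges overlapped, but the median cell lay far lower in both HSC populations than in the other two. The log2 differences were 1.09, 3.18 and 4.41 from WT-MPP, BM HSC and FL HSC. By mean TPM the level was 395 in CD11b+CD48+SK cells and 495 among WT-MPP, so the first of these differences did not hold on that scale. Ifi27 overlaps its paralog Ifi27l2a on chromosome 12, and reads from the paralog may have been counted in it. Ifi27l2a was in 42.6% of CD11b+CD48+SK cells, 12.2% of the WT-MPP, 2.78% of the BM HSC and 12.5% of the FL HSC. Ifi35 was in 74.5%, 56.1%, 66.7% and 83.9% of cells, with differences of 1.22, 0.01 and -1.31 and mean levels of 111, 94.9, 115 and 166 TPM. Xaf1, a gene linked to cell death, was in 31.9%, 56.1%, 41.7% and 66.1% of cells, with differences of -1.44, -0.48 and -2.28.

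Of the 3 comparison populations, FL HSC and BM HSC differed in part of the list. In FL HSC, 11 of the 39 genes were higher than in BM HSC and 3 lower, while 18.7% of all genes were higher and 3.99% lower. The median difference was 0.31, beside 0.11 over all genes, and without the 6 FL HSC cells described below it was -0.036, beside 0.11. Those 6 cells were chosen for holding many of these same genes, so a lower median without them was favoured by the choice. The higher genes were Oas1a (2.83), Irf7 (1.81), Xaf1 (1.79), Parp9, Samhd1, Dhx58, Ifi35, Oasl2, Bst2, Rtp4 and Gbp2, and the lower ones Isg20 (-1.86), Ifi27 (-1.23) and Ifi44 (-1.17). A pseudocount of 10 TPM left 1 gene higher and 1 lower, beside 7.04% and 1.33% of all genes. Oas1a, Rtp4, Irf7, Parp9 and Xaf1 were higher under both ways of averaging and none was lower, while 5.24% of all genes were higher and 3.79% lower.

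Between WT-MPP and BM HSC, 4 genes were higher in WT-MPP and 3 lower, while 1.96% of all genes were higher and 10.6% lower. The median difference was 0.16, beside -0.09 over all genes. Rtp4 (2.41), Ifi27 (2.09), Oasl2 (1.59) and Gbp2 (1.39) were higher, and Isg20 (-1.27), Ifi35 (-1.21) and Samhd1 (-1.15) lower. The split was 6 to 2 with cells scaled by the median ratio, beside 2.23% of all genes higher and 8.16% lower. It was 9 to 1 with TPM averaged first, beside 11.4% and 15.8%, and 9 to 1 among cells with 3500 to 5500 genes, beside 4.19% and 10.2%. A pseudocount of 10 TPM gave 2 to 0, beside 0.506% and 2.5%, and one of 0.1 TPM gave 7 to 7, beside 4.6% and 18.8%. Rtp4 and Ifi27 were higher under both ways of averaging, as were 1.37% of all genes, and no gene of the list was lower, beside 4.2%. Both comparisons share the BM HSC.

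How many of the genes a single cell held varied widely, and most in FL HSC. The lowest, median and highest cell held 9, 13 and 25 of the 39 genes in CD11b+CD48+SK cells, 9, 14 and 27 among WT-MPP, 6, 16 and 24 among BM HSC, and 9, 15.5 and 35 among FL HSC. The number of genes of the list in a cell went with the number of all genes in it, with Spearman correlations of 0.317, 0.707, 0.694 and 0.489 across the 47, 41, 36 and 56 cells. The sum of TPM over the 39 genes was lowest in CD11b+CD48+SK cells, at a median of 5723 against 11762 among WT-MPP, 11826 among BM HSC and 8659 among FL HSC. Without the 3 Ifitm genes these medians were 1288, 2079, 1575 and 1385, so the low sum lay mainly in Ifitm1 and Ifitm3.

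**Figure D4:**
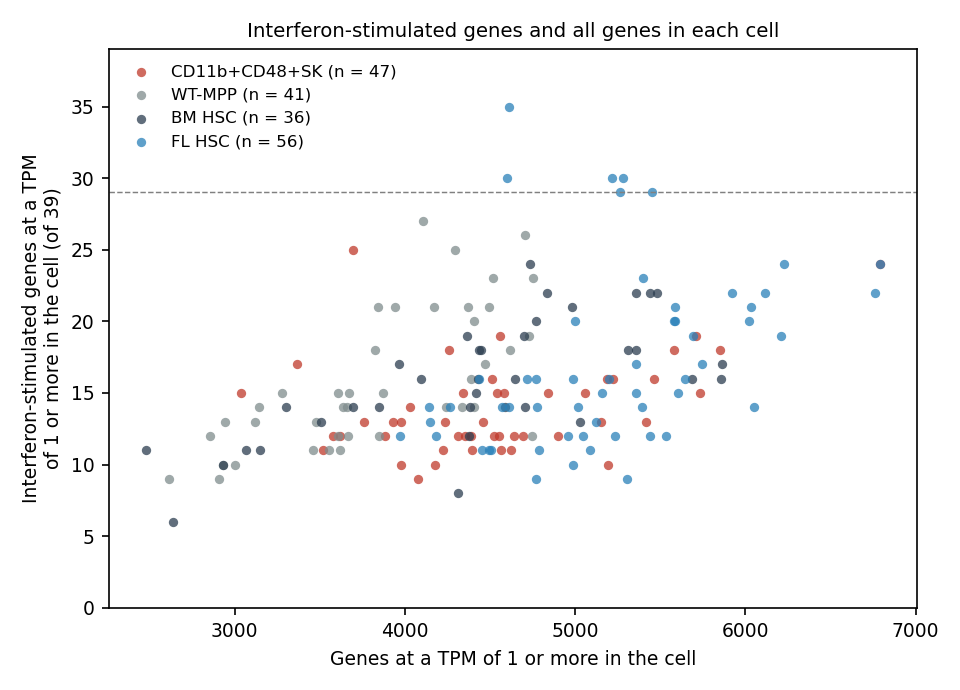
Each point is a cell, the x axis counts all genes of that cell with a TPM of at least 1 and the y axis the interferon-stimulated genes among the 39. The 6 points on or above the dashed line at 29 genes are all FL HSC, and they lie in the middle of the x axis.

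In FL HSC, 6 of the 56 cells held 29 to 35 of the 39 genes, and the other 50 held 9 to 24. No cell of another population held 29 or more, although 3 WT-MPP and 1 CD11b+CD48+SK cell held 25 to 27. The 6 cells were chosen by this count, so their levels of the same genes are a description. They did not hold more genes in all, with 4601 to 5452 genes and a median of 5239, beside a median of 5178.5 in the other 50. Summed over the genes other than the 3 Ifitm genes, they reached 3982 to 18971 TPM, whereas the other 50 cells lay between 424 and 2783 TPM, so these ranges did not overlap. The 6 cells, 10.7% of all FL HSC, carried 43.2% of that TPM. Among them 1 cell stood out, at 18971 TPM, and the next reached 8397 TPM. That highest cell also held the highest FL HSC levels of Ifitm3, Irf7, Oas1a and Bst2.

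Irf7 was among the genes that set the 6 cells apart. Its lowest, median and highest levels in the 6 cells were 135, 733 and 2305 TPM, and in the other 50 cells 0, 0.732 and 244 TPM. Ifit1 was in all 6 cells, at 95.2 to 562 TPM, and in 5 of the other 50. These genes entered the count that chose the cells, so their presence there was favoured by the choice. Mx1 was in 3 of the 6 and in none of the other 50, and Ifi44 in 4 of the 6 and in 6 of the other 50. Isg15 was in all 6 and in 13 of the other 50.

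Of the Ifitm genes, Ifitm3 stood higher in the 6 cells, while Ifitm1 and Ifitm2 stood at like levels in both. Ifitm3 had a mean of 7619 TPM in the 6 cells and 1945 TPM in the others, with medians of 5505 and 1585 TPM. Ifitm1 averaged 3581 and 3171 TPM, and Ifitm2 2078 and 2199 TPM. Not every gene of the list followed, since Zbp1 was in none of the 6 cells, Adar in 2 of them, and Mx2 in 2 of the 6 and 2 of the other 50. Of 55 further interferon-stimulated genes that did not enter the choice of the cells, the 6 cells held 32 to 47 with a median of 36.5, and the other 50 held 16 to 33 with a median of 25.

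**Figure D5:**
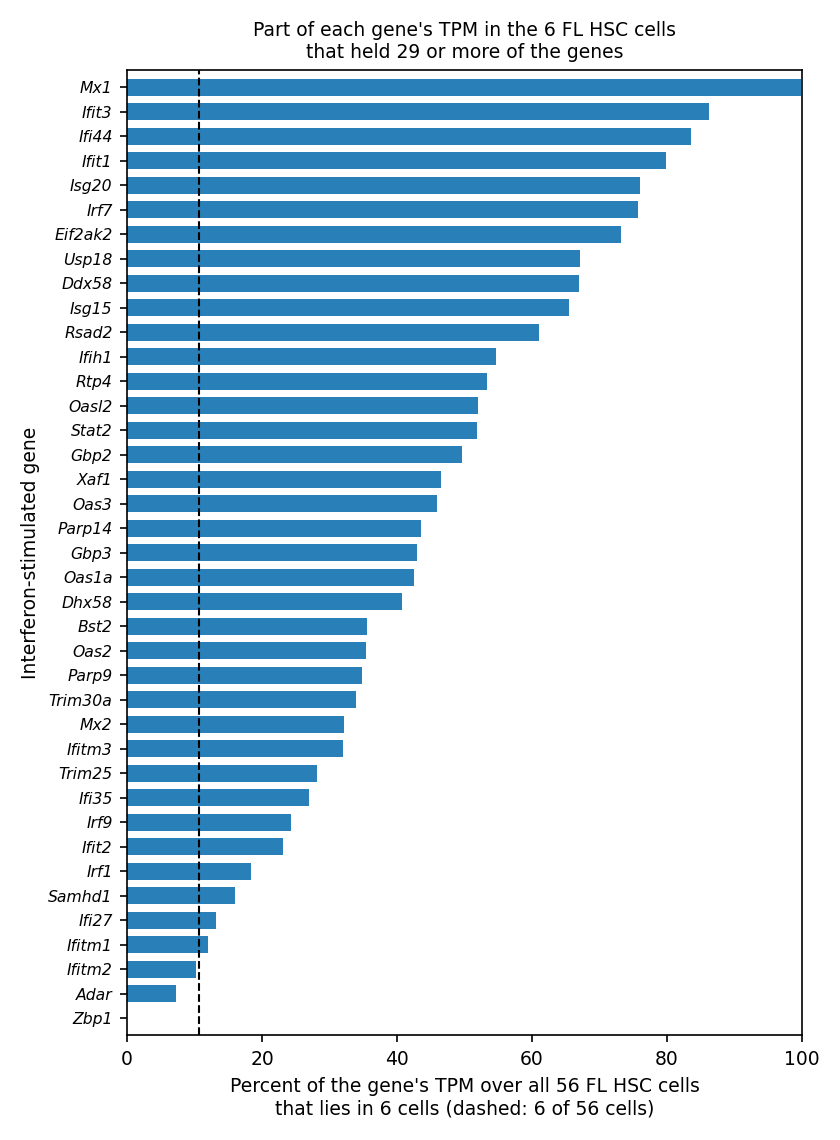
The bars give, for each of the 39 genes, the percent of its TPM over all 56 FL HSC that lay in the 6 cells holding 29 or more of the genes, and the dashed line is the 10.7% that 6 of 56 cells make up. Mx1, Ifit3, Ifi44 and Ifit1 reach furthest to the right, Ifitm1 and Ifitm2 lie near the dashed line, and Zbp1 has no bar.

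The genes varied together across cells mainly in FL HSC. Among genes in at least 25% of the cells of a population, the median Spearman correlation over pairs was 0.18 among FL HSC, beside 0.006 over pairs of all genes, and 84.3% of the 325 pairs lay above 0. It was 0.089 among WT-MPP beside 0.025, 0.043 among BM HSC beside 0.027, and 0.032 in CD11b+CD48+SK cells beside 0.021. The pair of highest correlation in FL HSC was Irf7 with Oas1a, at 0.639 over 56 cells. The FL HSC values include the 6 cells with 29 or more of the genes. Those cells carried 75.7% of the FL HSC TPM of Irf7 and 42.5% of that of Oas1a. Their part in the correlations was not tested. Cells of a population share their sequencing and scaling, and in sparse values a weak correlation shows little.

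Leaving out the 6 cells, a choice made after seeing the data, changed the differences of FL HSC from BM HSC. The cells were chosen by these same genes, and no cells of the other populations were left out. Lower FL HSC levels were therefore favoured by the choice. Without the 6 cells, 7 genes were higher in FL HSC and 5 lower, beside 18.8% and 4.22% of all genes, so the higher count was at the background share. The median difference was -0.036 in place of 0.31. Against CD11b+CD48+SK cells, the difference of Ifitm1 was -3.25, whereas that of Ifi44 moved to -0.76 and that of Oasl2 to -0.89, both within the fold.

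The machinery that receives interferon was present in all populations. Of 21 ligands listed by name, 2 were among the genes of the table used here. Of these, Ifnab was in 1 cell, an FL HSC, and Ifnz in 2, 2, 0 and 3 cells of CD11b+CD48+SK, WT-MPP, BM HSC and FL HSC. The receptor chain Ifnar1 was in 42.6%, 41.5%, 36.1% and 46.4% of cells. Ifnar2, its partner, was in 83.0% of CD11b+CD48+SK cells (69.2 to 92.4%), 53.7% of the WT-MPP (37.4 to 69.3%), 50% of the BM HSC (32.9 to 67.1%) and 85.7% of the FL HSC (73.8 to 93.6%), and its log2 differences were 2.15, 2.61 and -0.06. Its mean TPM was 150 in CD11b+CD48+SK cells and 142 among WT-MPP, while that of Ifnar1 was 10.8 and 27.8.

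The interferon gamma receptor chain Ifngr1 was in 80.9%, 87.8%, 88.9% and 94.6% of cells, with differences of -0.36, -0.67 and -1.97, and Ifngr2 in 34%, 41.5%, 44.4% and 33.9%, within the fold. Il10rb, shared by the interferon lambda and interleukin-10 receptors, was higher in CD11b+CD48+SK cells than in every other population, by 1.85, 1.66 and 2.39, while Ifnlr1, the lambda chain, was in no cell. Among the kinases, Jak1 was in 66.0% of CD11b+CD48+SK cells and 97.2% of the BM HSC, a difference of -2.61, and Jak2 and Tyk2 stayed within the fold. Stat3 was within the fold of CD11b+CD48+SK cells in each comparison.

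Of the other interferon regulatory factors, Irf2, a repressor of the response, had differences of -1.19, -2.90 and -0.95, and Irf3, which starts interferon production, had 1.73, 0.63 and -0.94. Irf5 and Irf8, factors of myeloid and lymphoid cells, stood at -1.004 and -1.01 from FL HSC, and Irf4 was in 1 FL HSC alone. Irf2bp1 stayed within the fold, and Irf2bp2, a cofactor of Irf2, was higher by 2.23 than in FL HSC. In all, 1 of the 12 genes of this signalling list was higher and 1 lower than in WT-MPP, 0 higher and 2 lower than in BM HSC, and 1 higher and 2 lower than in FL HSC. Of the 10 genes of double-stranded RNA sensing, 0 were higher in CD11b+CD48+SK cells in any comparison, and 2, 3 and 2 were lower than in WT-MPP, BM HSC and FL HSC. These short lists stand beside the shares of all genes given above, and 2 of 10 is near the 15.3% lower than in FL HSC. Those lower than in WT-MPP were the kinases Tbk1 and Ikbke, which phosphorylate Irf3, at -1.36 and -1.75 from WT-MPP. Socs1, which shuts the JAK kinases down, was higher by 1.59 than in WT-MPP and was the 1 of 10 negative regulators past the fold there. Of these 10, 2 were higher and 1 lower than in BM HSC, and 0 higher and 4 lower than in FL HSC.

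The 55 further interferon-stimulated genes, which include proteasome, guanylate-binding and Ifi200 family members, were counted in the same way. Against WT-MPP, 9 were higher and 8 lower in CD11b+CD48+SK cells, beside 13.9% and 3.67% of all genes, with a median difference of -0.04. In that comparison 26 of the 55 lay above 0 and 28 below, so the low standing of the 39 genes did not extend to this list. Against BM HSC, 11 were higher and 11 lower, beside 9.79% and 8.63%, and against FL HSC 7 were higher and 9 lower, beside 2.94% and 15.3%. Ube2l6, the conjugating enzyme for Isg15, had a difference of -3.23 from WT-MPP, Ifi203 one of -2.48, and Gbp6, which was in no CD11b+CD48+SK cell, one of -2.16. Ifi27l2a (2.23), Nmi (2.22), Ifi47 (1.75) and Ifi30 (1.39) were the genes at the other end. Ly6a, which encodes Sca1 and was used to sort the cells, averaged 431, 653, 577 and 375 TPM, within the fold.

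Genes of other cell types moved with the populations. The 8 myeloid markers summed to 559 to 8226 TPM in CD11b+CD48+SK cells, with Elane and Csf1r in no cell, to 18.2 to 4568 TPM among WT-MPP, with Elane, Ctsg, S100a8, S100a9 and Csf1r in none, to 499 to 3915 TPM among BM HSC, with S100a8, S100a9 and Csf1r in none, and to 190 to 4503 TPM among FL HSC, with Ctsg, S100a8 and S100a9 in none. These sums include Lyz2, which was in every cell and stayed within the fold in each comparison. Its means were 1142, 1116, 1106 and 1323 TPM in CD11b+CD48+SK cells, WT-MPP, BM HSC and FL HSC. Ctsg was in 83.0% and Mpo in 91.5% of CD11b+CD48+SK cells, against at most 2.78% and 19.6% elsewhere. Prtn3, another gene of the list, was in 93.6% of CD11b+CD48+SK cells and went the other way, with differences of -1.25, -0.76 and -1.88 and means of 343, 561, 373 and 471 TPM. The 4 erythroid markers summed to a median of 1004 TPM among FL HSC and to at most 1.15 TPM in the median cell elsewhere. Their range was 31.7 to 4955 TPM among FL HSC and 0 to 2854 TPM elsewhere, and the beta-globin gene Hbb-b1 was in 98.2% of the FL HSC, with Hba-a1 in 1 of them. The defining T-cell gene Cd3d was in 1 CD11b+CD48+SK cell and in no other. Of the same T and NK list, Cd3g was in no cell, while Klrb1c went the other way. Klrb1c was in 8 of the 36 BM HSC and 7 of the 56 FL HSC, but in 0 of 41 WT-MPP. It was in 0 of 47 CD11b+CD48+SK cells, and its difference from BM HSC there was -1.52, past the fold. Of the 3 B-cell markers, Cd79a was in 0, 0, 1 and 1 cells, Vpreb1 in 4, 1, 0 and 7, and Cd79b in 61.7%, 63.4%, 75% and 83.9% of cells. The part of the myeloid, lymphoid and erythroid genes in the levels of the interferon-stimulated genes was not tested.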

How the data were processed

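Single cells were sorted and sequenced by Smart-Seq2, 1 library per cell. Per the submitters' processing notes the tools were bcl2fastq, HISAT2 (version 2.1.0), SAMtools (version 0.1.19) and StringTie (version 1.3.4), with mm10 as the genome build. The authors deposited TPM values, which sum to 1000000 in every cell. The depth per cell is thus unknown. Of 181 columns, 1 matched no sample and was not used. Values at 0 can be failed estimates, since Gapdh was at 0 in 1 of 180 cells.

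All 14825 genes entered the means of log2(TPM+1), with a pseudocount of 1 and no filter on low values. Because log2(TPM+1) understates changes of low genes, mean TPM is given beside some of the differences. Genes were counted in a cell at a TPM of 1 or more. Genes named were those of the 39 in at least 50% of the cells of a population, past the fold in any of 5 comparisons or at 0 in a whole population, with the receptors, JAK, STAT and IRF genes, and the 5 largest and 5 smallest differences from WT-MPP among the remaining lists; 1 gene that this rule names is not reported here. The genes and lists were chosen with earlier results of these data known. Reads of paralogs (Ifit, Ifitm, Oas1, Gbp, Mx and Trim30 families) may have been split between them. Alternatives were other pseudocounts, averaging TPM first, a filter on low genes, median-ratio scaling, cells with 3500 to 5500 genes, a detection limit of 5 TPM and leaving out the cell of highest summed TPM. Promoter windows came from RefSeq (GRCm38.p6). Computation was done in Python 3.11.15, numpy 2.4.6, pandas 2.3.3 and scipy 1.17.1, with matplotlib 3.10.9 for plots. The calculation of differences was tested on FL HSC values with known shifts put in. Such a test checks the arithmetic and not the comparison of populations.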

Additional observations from a re-analysis of the deposited data

How the results depend on the processing

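Values below are for CD11b+CD48+SK cells minus WT-MPP, minus BM HSC and minus FL HSC, then FL HSC minus BM HSC and WT-MPP minus BM HSC. With a pseudocount of 0.1 TPM the median differences were -0.9997 and -0.75 for the first and second, and 0.083 for the last. The numbers of genes lower were then 19 and 14 for the first and second, beside 8.22% and 15.7% of all genes. They were 5 for FL HSC minus BM HSC and 7 for WT-MPP minus BM HSC, beside 8.79% and 18.8%. Those higher were 5 for the second and 7 for WT-MPP minus BM HSC, beside 15.7% and 4.6%. With a pseudocount of 10 TPM the medians were -0.26, -0.17, -0.32, 0.15 and 0.069. The numbers higher were 1, 1, 1, 1 and 2, beside 5.09%, 3.62%, 1.21%, 7.04% and 0.506% of all genes. The numbers lower were 4, 4, 6, 1 and 0, beside 1.15%, 2.95%, 5.21%, 1.33% and 2.5%. With TPM averaged before the logarithm the medians were -1.06 and -0.65 for the first and second and 0.43 for the last. In CD11b+CD48+SK cells 1 gene was higher and 20 lower than in WT-MPP, beside 9.8% and 21.3% of all genes. WT-MPP minus BM HSC gave 9 higher and 1 lower, beside 11.4% and 15.8%. With 3500 to 5500 genes per cell (40, 30, 27 and 39 cells) the medians were -0.85, -0.55 and, for FL HSC minus BM HSC, 0.14. In CD11b+CD48+SK cells 1 gene was then higher and 16 lower than in WT-MPP, beside 9.46% and 6.37% of all genes. WT-MPP minus BM HSC gave 9 higher and 1 lower, beside 4.19% and 10.2%. The Oas1a difference of CD11b+CD48+SK cells from WT-MPP turned from 1.16 to -0.23. Median-ratio scaling left 5 genes lower in CD11b+CD48+SK cells than in BM HSC, beside 7.13% of all genes. Without the cell of highest summed TPM the median of WT-MPP minus BM HSC was 0.061. Leaving out the 6 FL HSC cells was an alternative chosen after seeing the data. Those cells were picked by the same 39 genes, so lower FL HSC levels without them were favoured by the choice. The median was then -0.33 for CD11b+CD48+SK minus FL HSC, with 8 genes lower beside 15.7% of all genes. For FL HSC minus BM HSC the median was -0.036, a reversal, with 7 higher and 5 lower, beside 18.8% and 4.22%. The cause of these moves was not tested. The medians of the 3 comparisons with CD11b+CD48+SK cells stayed below 0 under every alternative run. The median of all genes was below 0 under each of them too in the comparison with FL HSC. With TPM averaged first it was below 0 in all 3, at -0.09, -0.17 and -0.17. The medians of the 39 genes were then -1.06, -0.65 and -0.90. TPM keep no depth, and each population is 1 sample, so no paired or replicate analysis was made.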
